A study of Mus musculus with 16 samples.

Results

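Growth hormone and STAT5 responsive liver genes were followed in mouse liver through 10 genes, chosen by their symbols in the array annotation: Ghr, Igf1, Igfals, Socs2, Cish, Stat5b, Bcl6, Cux2, Hsd3b5 and Elovl3. Together they had 17 of the 22626 non-control probe sets, and 10 of the 12393 genes named by 1 symbol; none of the 10 lacked a probe set. Liver RNA of male FvB/n mice had been measured on 16 arrays in 2 experiments. The first experiment held 4 arrays from AP20187-treated and 4 from untreated TTR::Fv2E-PERK mice, a high expressing transgenic line in which the transthyretin (Ttr) promoter, active in hepatocytes, drives a chimera of the kinase PERK that AP20187 dimerises. The untreated mice carried the same transgene, and the series' design text calls their treatment a mock injection. The second experiment held 2 arrays for each of 4 groups: Alb::GC mice fed HFD (high fat diet), Alb::GC mice fed LFD (low fat diet), wildtype mice fed HFD and wildtype mice fed LFD. In Alb::GC mice the albumin promoter, active in hepatocytes, drives a fragment of GADD34, a cofactor in the dephosphorylation of the translation factor eIF2alpha. Ages, doses, times on treatment or diet, and the number of founder lines were not among the labels used here. Mice of the design text that were bred to an Atf4 knockout were not analysed here.

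Growth hormone binds its receptor, encoded by Ghr, on hepatocytes and activates the kinase JAK2, which phosphorylates the transcription factor STAT5B. STAT5B then turns on Igf1 and Igfals, whose products circulate as a complex, and Socs2 and Cish, which encode inhibitors that feed back on the receptor. In rodents growth hormone is secreted in pulses in males and more evenly in females, and this pattern keeps many liver genes at different levels in the sexes. BCL6 is a repressor that is higher in male mouse liver and competes with STAT5 for DNA, and CUX2 is a factor found mainly in female mouse liver. Hsd3b5, a steroid-metabolising enzyme, and Elovl3, which elongates fatty acids, are higher in male mouse liver.

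STAT5 binds the palindrome TTCNNNGAA, which BCL6 also binds, so the promoter windows that hold it are shown. RefSeq windows (GRCm38.p6, from 250 bases before to 50 bases after a start site) were at hand for 8 of the 10 genes, 14 windows in all, and Socs2 and Elovl3 had no entry. The palindrome, which reads the same on both strands, was in 5 of the 14 windows, namely the 1 of Cish, both of Bcl6 and 2 of the 3 of Igfals, and in 8.3% of all 32851 windows of the table. Cish had 2 matches, beginning 1 and 12 bases into the transcript, and 0.457% of all windows had 2 or more. The second Bcl6 start site had 3 matches (TTCCTGGAA, TTCTGTGAA and TTCCGGGAA), and 0.0335% of all windows had 3 or more. Its first start site had 1 match, the first Igfals start site had 1 match (TTCTCAGAA) 236 bases upstream, and the second had 1 match (TTCCTAGAA) 58 bases upstream. The letters TGATGNAA, searched on both strands as a composite element for C/EBP and ATF factors, and TGACGTCA, the cyclic AMP response element, were in none of the 14 windows and in 3.97% and 1.79% of all windows. These are matches of letters and not measured binding sites. The 3 windows below are printed 5′ to 3′ on the strand of the gene with the palindromes in capitals: Cish, chr9:107296409-107296708, plus strand; Bcl6, second start site, chr16:23981234-23981533, minus strand; Igfals, second start site, chr17:24877981-24878280, plus strand.
Cish: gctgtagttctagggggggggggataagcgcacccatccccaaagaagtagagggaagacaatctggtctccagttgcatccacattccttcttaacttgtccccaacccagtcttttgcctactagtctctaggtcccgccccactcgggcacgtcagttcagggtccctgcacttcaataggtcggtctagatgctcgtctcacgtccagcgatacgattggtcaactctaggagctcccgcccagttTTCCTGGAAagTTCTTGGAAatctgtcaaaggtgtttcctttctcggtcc
Bcl6: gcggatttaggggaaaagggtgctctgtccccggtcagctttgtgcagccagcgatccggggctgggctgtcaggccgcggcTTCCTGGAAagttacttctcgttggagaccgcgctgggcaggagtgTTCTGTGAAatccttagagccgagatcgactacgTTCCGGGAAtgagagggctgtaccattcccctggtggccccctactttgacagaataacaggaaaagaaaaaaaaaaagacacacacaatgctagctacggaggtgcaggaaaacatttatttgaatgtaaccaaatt
Igfals: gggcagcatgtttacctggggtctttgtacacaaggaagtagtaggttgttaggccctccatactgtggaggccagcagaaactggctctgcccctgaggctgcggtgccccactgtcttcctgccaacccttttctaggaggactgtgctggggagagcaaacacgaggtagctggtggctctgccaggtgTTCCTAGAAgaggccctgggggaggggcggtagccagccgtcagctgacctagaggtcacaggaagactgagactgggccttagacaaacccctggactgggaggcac

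The deposited values are linear ratios around 1 with 2 decimals, and their denominator is not given in the sources used here. A ratio shows a difference between arrays and holds no absolute level, so no gene is compared with another in level, presence of a cell type cannot be read from it, and the 2 experiments are kept apart. Array medians lay between 0.94 and 1.02, and log2 values of replicates of a group correlated at 0.442 to 0.658. The number of arrays limits the precision. Whether every array stands for a separate animal is not said in the labels, so the p-values cover the spread among these samples only, and that spread may be technical. Tests were limma fits over all probe sets on log2(ratio + 0.05), with Benjamini-Hochberg adjustment and a threshold of 0.05, and differences below are on this log2 scale. The 3′ to 5′ difference of the beta-actin controls, a sign of RNA quality, was -0.71 to -0.33 (log2) in HFD livers and -0.16 to 0.21 in LFD livers. It was -0.04 to 0.15 in AP20187 livers and -0.18 to -0.02 in untreated livers. The same difference of the Gapdh controls was -0.31 to -0.15 in HFD livers and 0.04 to 0.22 in LFD livers. In AP20187 livers it was 0.19 in replicate 3 and -0.14 to -0.10 in the other 3, against -0.06 to -0.01 in untreated livers. AP20187 replicate 3 also had the highest Hsd3b5 (1.70) and Elovl3 (1.84) of its group. The part of RNA quality in the results was not tested. In bulk liver, fewer cells of a type and less RNA per cell cannot be told apart.

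**Figure D1:**
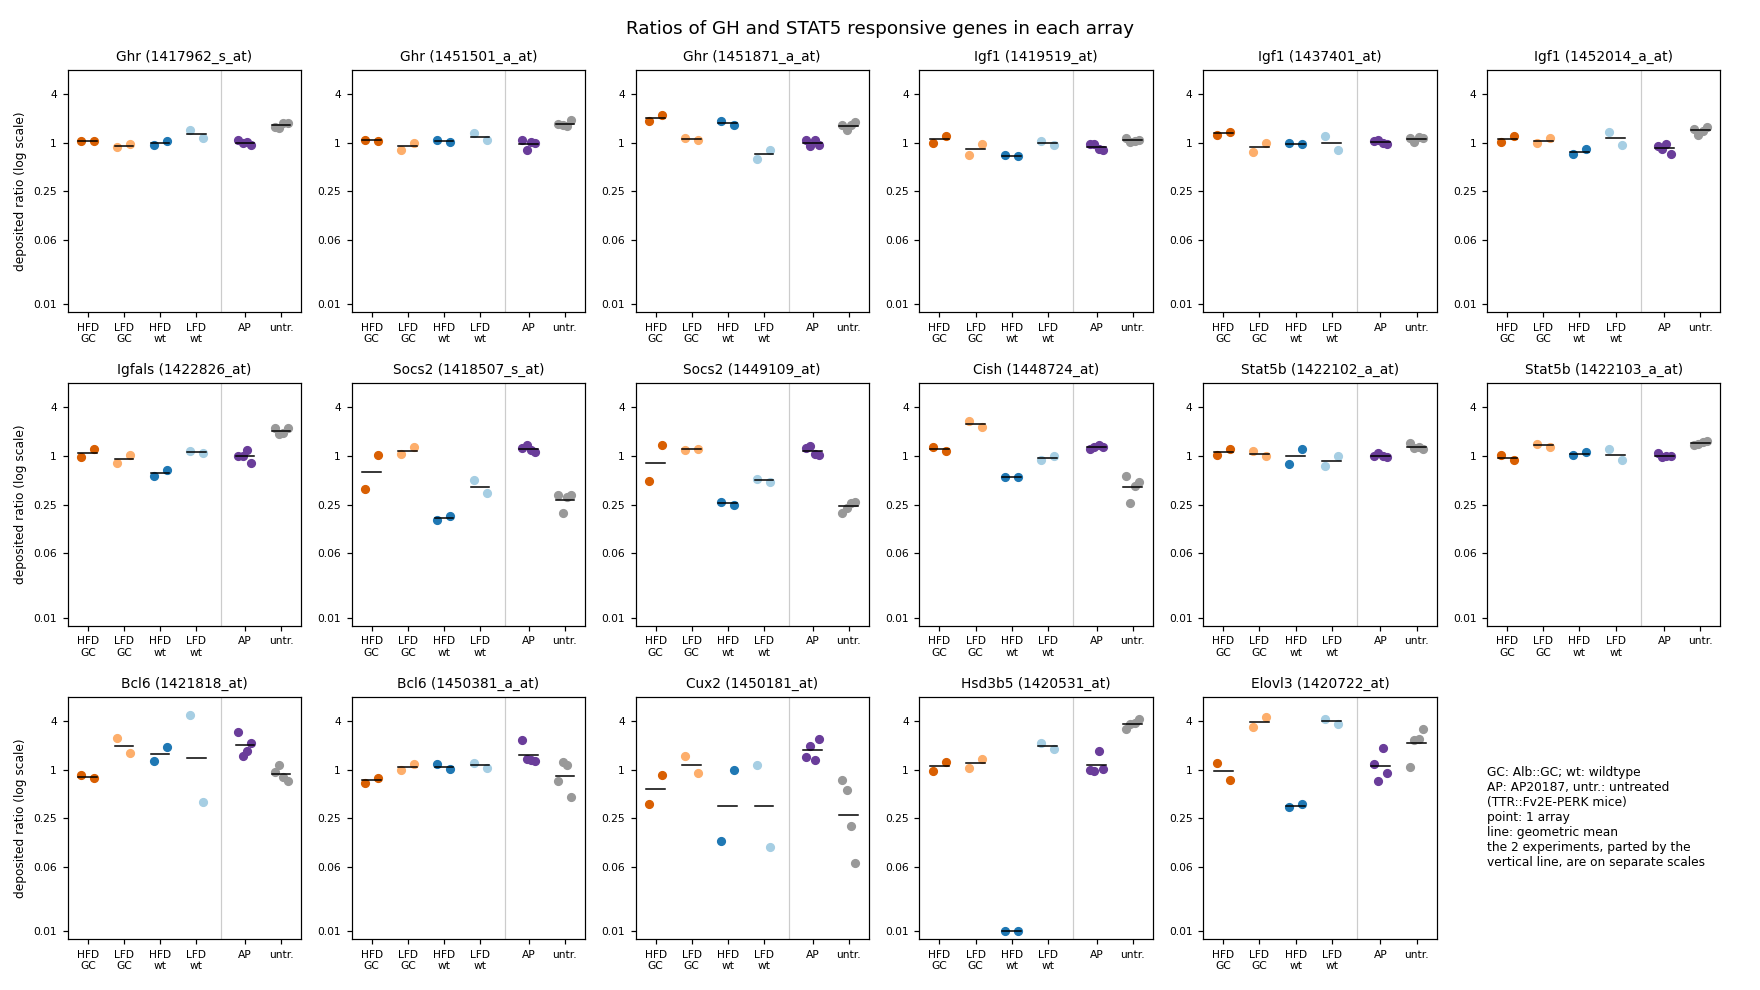
Deposited ratio (log axis) of each of the 17 probe sets in each array, by group, with the geometric mean as a line; the TTR::Fv2E-PERK arrays stand right of the vertical line. Socs2 and Cish were higher in every AP20187 array than in any untreated array, and Hsd3b5 stood at 0.01 in both HFD wildtype arrays. AP20187 and untreated arrays did not overlap in 35% of all probe sets.

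With AP20187 the receptor gene Ghr and Stat5b were lower, while the 2 feedback inhibitors were higher. All 3 probe sets of Ghr fell, by 0.68 to 0.79, and both of Stat5b fell, by 0.34 and 0.50. Socs2 rose by 1.93 and 2.07 and Cish by 1.52. Of the 17 probe sets 5 were higher, where 13.7% of all probe sets were, and 8 were lower, where 20.4% were; because the genes were chosen with results of this comparison known, nothing is read from these counts, and the adjusted p-values of single genes here are not independent evidence. The median difference of the 17 was -0.34, against -0.13 over all probe sets.

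Ghr probe set 1417962_s_at had ratios of 1.09, 0.99, 1.01 and 0.93 in AP20187 livers, against 1.56, 1.51, 1.76 and 1.77 in untreated livers. The groups did not overlap, and the difference was -0.69 ± 0.09 (SE; limma adjusted p = 0.000728). AP20187 and untreated arrays did not overlap in 35% of all probe sets, so a lack of overlap is common in this comparison. The other Ghr probe sets behaved alike. 1451501_a_at averaged 0.97 ± 0.11 with AP20187 and 1.71 ± 0.13 without (SD, n = 4 each), and 1451871_a_at averaged 0.998 ± 0.09 and 1.63 ± 0.14. Mouse Ghr makes a membrane receptor and, by splicing, a shorter secreted binding protein, and the annotation used does not say which form each probe set measures. Stat5b probe set 1422103_a_at had ratios of 1.09, 0.97, 0.99 and 1.01 in AP20187 livers, against 1.36, 1.4, 1.51 and 1.55 in untreated livers. It was lower in every treated array, by 0.50 ± 0.08 (SE; limma adjusted p = 0.00178). The second Stat5b probe set, 1422102_a_at, averaged 1.02 ± 0.05 and 1.30 ± 0.10 (SD, n = 4 each) and its difference was -0.34 (limma adjusted p = 0.0115). Quantile normalization left it at -0.18 with an adjusted p of 0.193.

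Socs2 encodes a protein that promotes decay of the growth hormone receptor. Probe set 1449109_at had ratios of 1.25, 1.33, 1.07 and 1.02 in AP20187 livers, against 0.20, 0.23, 0.26 and 0.27 in untreated livers. The 2 groups were far apart, with a difference of 2.07 ± 0.21 (SE; limma adjusted p = 0.000271). Mean ratios were 1.17 with AP20187 and 0.24 without, and the log2 difference was 1.53 to 2.24 over the alternatives tried. Probe set 1418507_s_at had ratios of 1.27, 1.39, 1.19 and 1.11, against 0.33, 0.20, 0.31 and 0.33, and rose by 1.93 ± 0.21 (SE; limma adjusted p = 0.000392). Cish encodes a relative of SOCS2 that docks on activated receptors. Its ratios were 1.23, 1.31, 1.37 and 1.28 in AP20187 livers, against 0.56, 0.26, 0.43 and 0.48 in untreated livers. The treated arrays lay close together and above all untreated ones, and Cish rose by 1.52 ± 0.22 (SE; limma adjusted p = 0.00132). Cish is the gene whose window above holds 2 palindromes at its start site. Windows of Bcl6, which rose on 1 probe set, and of Igfals, which fell, held the palindrome too, and Socs2 had no window. A link of the palindrome to these changes was not tested.

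Of the circulating IGF complex, Igfals fell and Igf1 fell on 1 of its 3 probe sets. Igfals, the acid-labile subunit that keeps IGF1 in the blood, had ratios of 1.01, 1, 1.20 and 0.83 in AP20187 livers, against 2.26, 1.87, 1.95 and 2.21 in untreated livers. The groups did not overlap and the difference was -1.01 ± 0.12 (SE; limma adjusted p = 0.000622). Igf1 probe set 1452014_a_at had ratios of 0.92, 0.84, 0.97 and 0.73, against 1.49, 1.25, 1.39 and 1.57, and fell by 0.69 ± 0.11 (SE; limma adjusted p = 0.00236). The other 2 Igf1 probe sets did not pass. 1419519_at averaged 0.895 ± 0.08 with AP20187 and 1.07 ± 0.05 without (SD, n = 4 each; limma adjusted p = 0.0783). 1437401_at averaged 1.01 ± 0.05 and 1.12 ± 0.07 (limma adjusted p = 0.273), so the size of the Igf1 difference depended on the probe set.

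Among the genes tied to sex-biased expression, the values of Cux2 and Hsd3b5 under AP20187 were known when the genes were chosen and are given without a test. Cux2 had ratios of 1.43, 1.96, 1.32 and 2.42 in AP20187 livers, against 0.74, 0.56, 0.20 and 0.07 in untreated livers. Every treated array was higher, and the untreated arrays were widely spread. Hsd3b5 had ratios of 0.99, 0.95, 1.70 and 1.01 in AP20187 livers, against 3.16, 3.71, 3.75 and 4.22 in untreated livers. All treated arrays were lower, and their mean difference was -1.67. Near-identical members of the Hsd3b family could share its probes, which was not tested. Elovl3 had ratios of 1.19, 0.72, 1.84 and 0.91, against 1.09, 2.34, 2.42 and 3.21. These groups overlapped, and the difference of -0.92 ± 0.37 (SE) did not pass (limma adjusted p = 0.0980). Bcl6 probe set 1421818_at had ratios of 2.93, 1.49, 1.72 and 2.16, against 0.94, 1.15, 0.82 and 0.72, and rose by 1.12 ± 0.22 (SE; limma adjusted p = 0.00573). The second Bcl6 probe set, 1450381_a_at, had ratios of 2.31, 1.34, 1.33 and 1.28, against 0.73, 1.24, 1.14 and 0.46. It was higher in every treated array but did not pass, with a difference of 0.83 ± 0.32 (SE; limma adjusted p = 0.0847).

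Other genes of the pathway were counted from 4 lists, beside 13.7% of all probe sets higher and 20.4% lower with AP20187. Of 16 measured genes of growth hormone and STAT signalling, 6 rose and 2 fell with AP20187, with a median difference of 0.29 beside -0.13 over all probe sets. Socs3, another feedback inhibitor, rose by 2.27 ± 0.11 (SE; limma adjusted p = 5.74e-05), with ratios of 2.73 to 3.43 against 0.52 to 0.67. Irs2, an adaptor of insulin signalling, rose by 2.34, and Nr3c1, the glucocorticoid receptor and a STAT5B partner, rose by 0.91, while Socs1 fell by 1.96. Stat5a, named after its values were seen, rose by 0.42 (limma adjusted p = 0.0105), opposite to Stat5b. Of 10 genes of the IGF system 6 fell and 1 rose (median -0.44). Igfbp1, an IGF-binding protein, rose by 1.59, while Igfbp5, Igfbp3 and Igf2r, the receptor that clears IGF2, fell by 1.33, 1.32 and 1.15. The count of lower IGF system genes was 3 after quantile normalization, and 3 to 6 with 1 array left out, the lowest without untreated replicate 1 or AP20187 replicate 1 or 2. Of 9 other male-biased genes 5 fell (median -0.79), among them the transporter gene Slco1a1 (ratios of 0.92 to 1.08 against 1.96 to 2.14) and the complement gene C6 (0.71 to 1.62 against 1.45 to 2.50). With 1 array left out this count was 4 to 8, with 8 without AP20187 replicate 3, and C6 passed 3 of 8 times. Of 14 other female-biased genes 5 rose and 1 fell (median 0.32), with the xenobiotic enzyme gene Cyp2b10 at 3.19 and the thioesterase gene Acot3 at 2.01. Cyp2b10 had ratios of 0.97 to 1.11 against 0.05 to 0.08. The latter are near the offset of 0.05, so the size of its difference depends on the offset. Hepatocyte markers moved in the same comparison: 4 of 5 fell, and their mean log2 level was -0.04 to 0.11 in AP20187 livers and 0.25 to 0.43 in untreated livers. The hepatocyte count was 2 after quantile normalization and 3 to 4 with 1 array left out. Stellate cell and fibroblast markers also differed, with mean levels of -0.07 to 0.12 in AP20187 and 0.66 to 0.99 in untreated livers, and 4 of 6 fell. Of 7 macrophage markers 4 fell, with mean levels of -0.36 to 0.12 in AP20187 and 0.31 to 0.40 in untreated livers. The macrophage count was 3 after quantile normalization and 2 to 5 with 1 array left out. Of 6 endothelial markers 2 fell, with mean levels of -0.14 to 0.10 in AP20187 and 0.27 to 0.34 in untreated livers. The part of these markers in the results was not tested.

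**Figure D2:**
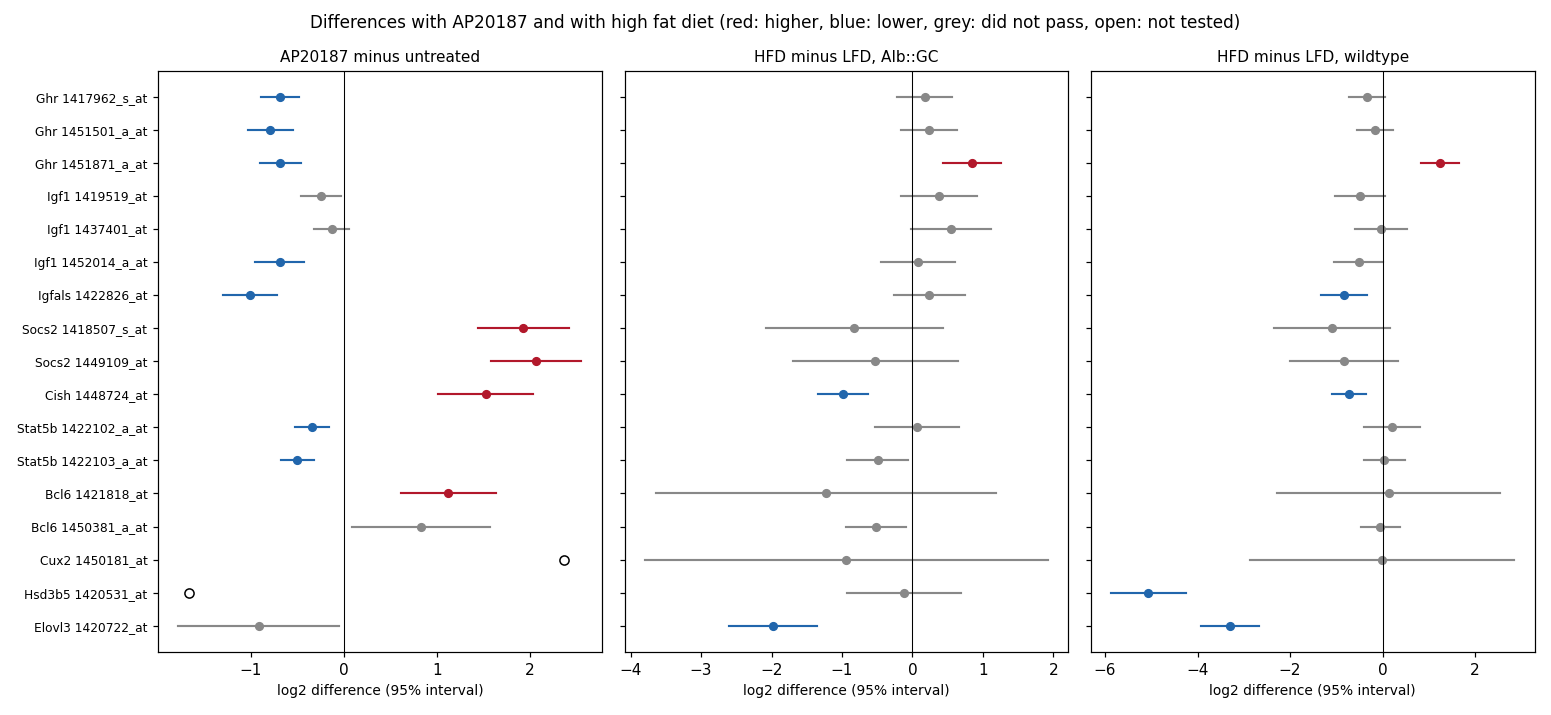
Log2 difference of each probe set (point) with its 95% interval (line) for AP20187 minus untreated, HFD minus LFD in Alb::GC and HFD minus LFD in wildtype livers; axes differ between panels, and the 2 open points carry no test. Ghr 1451871_a_at lies below 0 with AP20187 (-0.68) and above 0 with HFD in Alb::GC (0.84) and wildtype (1.24) livers.

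In wildtype mice, HFD went with lower values of 4 probe sets (6.63% of all were lower) and a higher value of 1 (7.97% were higher). Hsd3b5 and Elovl3 had the largest differences, -5.06 and -3.30, and Cish and Igfals were lower by 0.73 and 0.83. In Alb::GC mice HFD went with 2 lower probe sets (2.13% of all), Elovl3 and Cish, and 1 higher (4.64% of all), Ghr 1451871_a_at. The median difference of the 17 was -0.12 in Alb::GC livers, against -0.02 over all probe sets, and -0.35 in wildtype livers, against -0.11 over all. Averaged over both genotypes, 3 probe sets were lower (14.0% of all) and 1 higher (13.5% of all). These were Hsd3b5, Elovl3 and Cish (lower) and Ghr 1451871_a_at (higher). The average for Hsd3b5 joins -5.06 in wildtype and -0.12 in Alb::GC livers, and the latter did not pass. It is therefore not a fall shown in both genotypes. The 4 averaged calls held whichever of the 8 arrays was left out, with adjusted p-values of 0.00593 to 0.0242.

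Hsd3b5 had ratios of 0.95 and 1.26 in HFD Alb::GC livers, against 1.05 and 1.36 in LFD Alb::GC livers. These overlapped, with a difference of -0.12 ± 0.33 (SE; limma adjusted p = 0.840). It had a ratio of 0.01 in both HFD wildtype livers, against 2.12 and 1.80 in LFD wildtype livers. The value 0.01 is the smallest deposited, so the direction is clear and the size is not: the difference was -5.06 ± 0.33 (SE; limma adjusted p = 0.00326), and -6.62 to -3.08 over the alternatives tried. The call held without any 1 of the 8 arrays, with an adjusted p of at most 0.0395. The test of the difference between genotypes in the diet effect gave 4.94 ± 0.47 (SE; limma adjusted p = 0.0890) and did not pass. Over the alternatives its adjusted p was 0.0379 to 0.267, and it passed only without the variance trend. None of the 17, and no probe set of the whole table, passed that test (0% by limma, with 2517 of 22626 at an unadjusted p under 0.05).

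Elovl3 had ratios of 1.20 and 0.75 in HFD Alb::GC livers, against 3.35 and 4.51 in LFD Alb::GC livers. It fell in Alb::GC mice by 1.98 ± 0.26 (SE; limma adjusted p = 0.0171). Leaving out 1 of 6 of the 8 arrays ended that call, with adjusted p-values of 0.0503 to 0.0863, and it held only without either LFD wildtype array. In HFD wildtype livers Elovl3 had ratios of 0.34 and 0.38, against 4.28 and 3.7 in LFD wildtype livers. There it fell by 3.30 ± 0.26 (SE; limma adjusted p = 0.00440), which missed the threshold without HFD wildtype replicate 1 (0.0568) or 2 (0.0547). The diet effects in Alb::GC and wildtype livers differed by 1.32 ± 0.37 (SE; limma adjusted p = 0.294), which did not pass.

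Cish was lower on HFD in both genotypes. Its ratios were 1.31 and 1.15 in HFD Alb::GC livers, against 2.71 and 2.27 in LFD Alb::GC livers, a fall of 0.99 ± 0.15 (SE; limma adjusted p = 0.0226). They were 0.55 and 0.55 in HFD wildtype livers, against 0.89 and 1 in LFD wildtype livers, a fall of 0.73 ± 0.15 (SE; limma adjusted p = 0.0295). Each of these calls ended when any 1 of 6 arrays was left out, with adjusted p-values of 0.0561 to 0.106 in Alb::GC and 0.0503 to 0.125 in wildtype. The arrays whose loss kept the call were the 2 of the other genotype on LFD. Quantile normalization also ended the wildtype call (adjusted p = 0.0615). Averaged over genotypes Cish fell by 0.86 ± 0.11 (SE; limma adjusted p = 0.00492), a call that held under all these changes. Socs2, the other inhibitor, had ratios on 1449109_at of 0.49 and 1.36 in HFD Alb::GC livers, against 1.20 and 1.22 in LFD Alb::GC livers. It had 0.27 and 0.25 in HFD wildtype livers, against 0.52 and 0.48 in LFD wildtype livers. The 2 HFD Alb::GC arrays lay far apart on both probe sets (0.39 and 1.03 on 1418507_s_at), and no diet difference of Socs2 passed (limma adjusted p = 0.0988 or more).

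The 3 Ghr probe sets parted under diet. 1451871_a_at had ratios of 1.86 and 2.21 in HFD Alb::GC livers, against 1.14 and 1.08 in LFD Alb::GC livers, and rose by 0.84 ± 0.17 (SE; limma adjusted p = 0.0416). It had 1.86 and 1.67 in HFD wildtype livers, against 0.63 and 0.82 in LFD wildtype livers, and rose by 1.24 ± 0.17 (SE; limma adjusted p = 0.0117). The wildtype call ended without HFD wildtype replicate 1 (0.0738) or 2 (0.0614). The Alb::GC call ended without any of 6 arrays (0.0800 to 0.164), after quantile normalization (0.0649) and without the variance trend (0.0615). 1417962_s_at and 1451501_a_at, in contrast, had diet differences of 0.18 and 0.24 in Alb::GC and -0.35 and -0.17 in wildtype livers, none of which passed. Averaged over genotypes 1451871_a_at rose by 1.04 ± 0.12 (SE; limma adjusted p = 0.00412), while the other 2 stood at -0.09 and 0.03.

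Igfals had ratios of 0.98 and 1.23 in HFD Alb::GC livers, against 0.83 and 1.03 in LFD Alb::GC livers. It had 0.56 and 0.67 in HFD wildtype livers, against 1.16 and 1.10 in LFD wildtype livers, and fell there by 0.83 ± 0.21 (SE; limma adjusted p = 0.0472). That call ended whichever array was left out (0.0568 to 0.171), after quantile normalization (0.0748) and after median centring (0.0523). The groups overlapped in Alb::GC livers and not in wildtype livers, and the 2 diet effects differed by 1.07 ± 0.29 (SE; limma adjusted p = 0.293), which did not pass. No diet difference of the 3 Igf1 probe sets passed. On 1419519_at Igf1 had 0.98 and 1.22 in HFD Alb::GC livers, against 0.71 and 0.97 in LFD Alb::GC livers, and 0.70 and 0.68 in HFD wildtype livers, against 1.05 and 0.93 in LFD wildtype livers. Stat5b differed by -0.50 to 0.20 and Bcl6 by -1.23 to 0.13 with diet within a genotype, and none passed. On 1450381_a_at Bcl6 had 0.69 and 0.78 in HFD Alb::GC livers, against 0.98 and 1.17 in LFD Alb::GC livers, and 1.16 and 1.02 in HFD wildtype livers, against 1.22 and 1.04 in LFD wildtype livers. On 1421818_at the 2 LFD wildtype arrays stood at 4.80 and 0.40, and no diet difference can be read from it in wildtype livers. Cux2 ratios lay between 0.11 and 1.48 over the 8 diet arrays, and the arrays of 1 group could be as far apart as 1.14 and 0.11 (LFD wildtype), so its diet differences of -0.94 and -0.01 carried SEs of 1.18.

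Sex-biased genes outside the 10 were read in the same contrasts. On HFD 4.64% of all probe sets rose and 2.13% fell in Alb::GC livers, and 7.97% rose and 6.63% fell in wildtype livers. Of 9 other male-biased genes, 2 fell on HFD in Alb::GC livers and 8 in wildtype livers. Their median differences were 0.07 and -1.41, beside -0.02 and -0.11 over all probe sets. Ugt2b38, a conjugating enzyme, fell by 2.89 in Alb::GC livers (ratios of 0.57 to 0.59 against 3.50 to 6.13) and fell by 4.72 in wildtype livers (0.16 to 0.33 against 4.66 to 11.79). Cyp7b1, an oxysterol hydroxylase, had a difference of 0.21 in Alb::GC livers, which did not pass, and fell by 2.55 in wildtype livers. C6 and Slco1a1 had differences of 0.07 and -0.43 in Alb::GC livers, which did not pass, and fell by 2.27 and 1.78 in wildtype livers. Leaving out 1 array took the wildtype count to between 0 and 7, with 0 without either HFD wildtype array, where 1 array carried the HFD wildtype group. The Alb::GC count was then 0 to 2, with 0 without any of the 4 Alb::GC arrays. Of 14 other female-biased genes 1 rose and 1 fell in Alb::GC livers (median 0.64), and 5 rose and 2 fell in wildtype livers (median 2.04). Hao2, a peroxisomal oxidase, had ratios of 20.78 and 22.02 in HFD wildtype livers, against 0.32 and 0.91 in LFD wildtype livers. Cyp2b9 had 10.97 and 11.65 against 0.45 and 0.63, and rose by 4.28 ± 0.35 (SE; limma adjusted p = 0.00499). The count of higher female-biased genes in wildtype livers was 1 without HFD wildtype replicate 1 and 0 without replicate 2, and that of lower ones was 0 to 1 with 1 array left out. In neither list did a gene pass the test of the difference between the 2 diet effects, so a larger diet effect in wildtype livers is not shown by these counts. The lists were drawn up with earlier results of these arrays known.

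**Figure D3:**
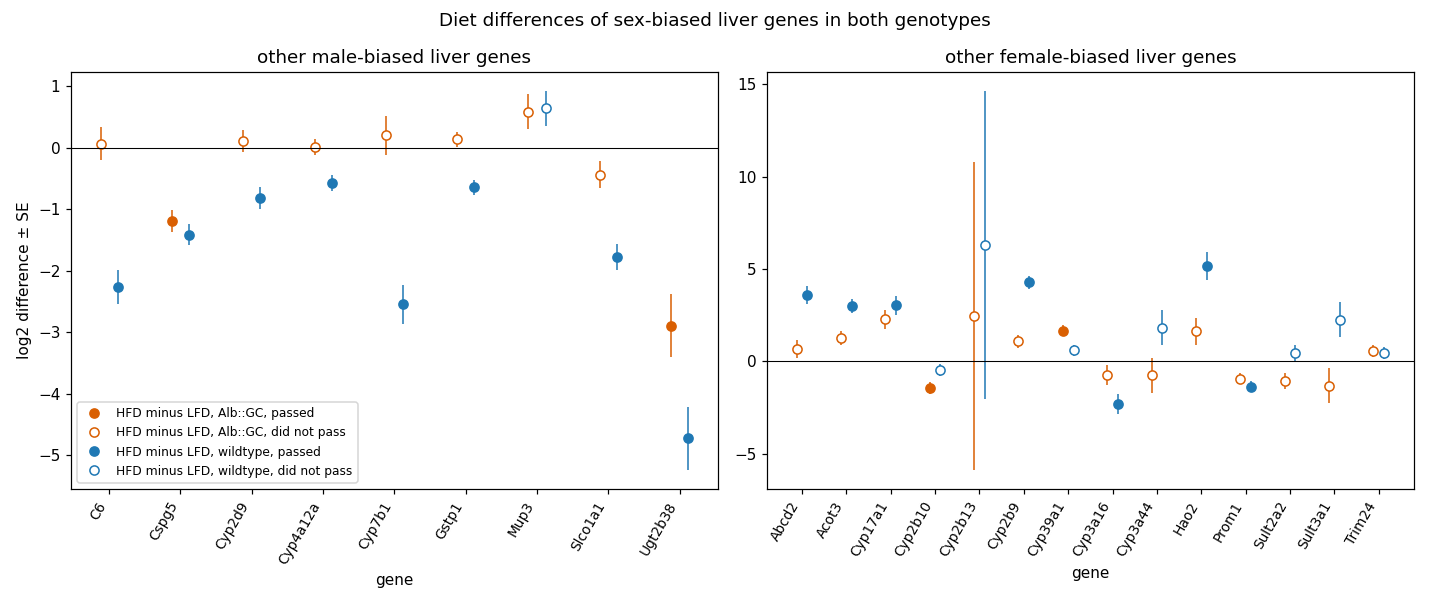
Log2 difference, HFD minus LFD, with its SE for other male-biased (left) and female-biased (right) genes in Alb::GC (orange) and wildtype (blue) livers; filled points passed the test, and the panels have their own axes. In wildtype livers 8 of 9 male-biased genes fell (6.63% of all probe sets did), a count not reached with any 1 array left out. In Alb::GC livers 2 of 9 fell (2.13% of all did), while female-biased genes stood on both sides of 0. No gene of either list passed the test of the difference between the 2 diet effects.

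In signalling genes HFD went with higher Stat3, an acute-phase transcription factor, in both genotypes. Its ratios were 1.24 to 1.33 in HFD Alb::GC livers, against 0.81 to 0.87 in LFD Alb::GC livers, and 3.03 to 3.18 in HFD wildtype livers, against 0.66 to 0.67 in LFD wildtype livers. Ptpn1, a phosphatase that acts on JAK2, rose by 0.99 in Alb::GC and 1.58 in wildtype livers. Igfbp1 fell by 2.85 in Alb::GC and 2.70 in wildtype livers, opposite to its rise with AP20187. With each of the 8 arrays left out in turn, Stat3 passed 2 of 8 times in Alb::GC and 8 of 8 in wildtype livers, Ptpn1 passed 2 and 6 times, and Igfbp1 passed 4 and 5 times. On HFD 4.64% of all probe sets rose and 2.13% fell in Alb::GC livers, and 7.97% rose and 6.63% fell in wildtype livers. Of the 16 signalling genes 4 rose and 0 fell on HFD in Alb::GC livers, and 3 rose and 1 fell in wildtype livers. With 1 array left out 0 to 4 rose in Alb::GC livers (0 without LFD Alb::GC replicate 2 or either HFD Alb::GC array) and 1 to 3 in wildtype livers (1 without either HFD wildtype array). Of the 10 IGF system genes 1 rose and 1 fell in Alb::GC livers, and 2 rose and 2 fell in wildtype livers. Both counts were 0 in Alb::GC livers without any of the 4 Alb::GC arrays, and 0 in wildtype livers without either HFD wildtype array. Neutrophil markers moved in the same wildtype comparison: 3 of 4 rose (Ngp, S100a8 and S100a9), a count not reached with any 1 array left out. Their mean log2 level was 1.09 to 1.28 in HFD wildtype livers and -0.43 to 0.11 in LFD wildtype livers. In HFD Alb::GC livers it was -0.78 to -0.19, against 0.04 to 0.25 in LFD Alb::GC livers. Elane, which marks neutrophil precursors, did not pass (-0.83 in wildtype livers). None of 5 hepatocyte markers passed in either genotype, with mean levels of -0.16 to -0.07 in HFD Alb::GC, 0.01 to 0.10 in LFD Alb::GC, -0.19 to -0.09 in HFD wildtype and 0.10 to 0.20 in LFD wildtype livers. Averaged over genotypes 3 of them fell, where 14.0% of all probe sets did, a count not reached with any 1 array left out. Cholangiocyte markers had mean levels of -0.27 to -0.19 in HFD Alb::GC, 0.35 to 0.55 in LFD Alb::GC, -1.08 to -0.76 in HFD wildtype and -0.22 to 0.01 in LFD wildtype livers. Averaged over genotypes 2 of 4 fell, beside the same 14.0% of all probe sets, and this count was not reached with any 1 array left out. Endothelial markers had mean levels of 0.25 to 0.45 in HFD Alb::GC, 0.03 to 0.17 in LFD Alb::GC, 0.38 to 0.43 in HFD wildtype and -0.44 to -0.22 in LFD wildtype livers. Of these 1 of 6 rose on HFD in wildtype livers, a call that did not hold in every fit with 1 array left out. Of 6 stellate cell and fibroblast markers 1 fell on HFD in Alb::GC and 2 rose in wildtype livers, where that count was not reached with any 1 array left out. Their mean levels were -0.33 to -0.13 in HFD Alb::GC, 0.09 to 0.41 in LFD Alb::GC, -0.05 to 0.15 in HFD wildtype and -0.31 to -0.05 in LFD wildtype livers. The part of these markers in the results was not tested.

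Between genotypes, 1 of the 17 probe sets passed on HFD and none on LFD. On HFD 1 was higher (0.0354% of all probe sets were) and 0 were lower (0.0972% were), and the median of the 17 was 0.50, against 0.02 over all. On LFD no probe set of the table passed (0%, with 2337 at an unadjusted p under 0.05). Hsd3b5 had ratios of 0.95 and 1.26 in HFD Alb::GC livers, against 0.01 and 0.01 in HFD wildtype livers. The difference was 4.25 ± 0.33 (SE; limma adjusted p = 0.0440), and its size depends on the offset because of the floor. This call ended whichever of the 8 arrays was left out (0.0699 to 0.154) and after quantile normalization (0.112). On LFD it had 1.05 and 1.36 in Alb::GC livers, against 2.12 and 1.80 in wildtype livers, a difference of -0.69 that did not pass (limma adjusted p = 0.538).

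**Figure D4:**
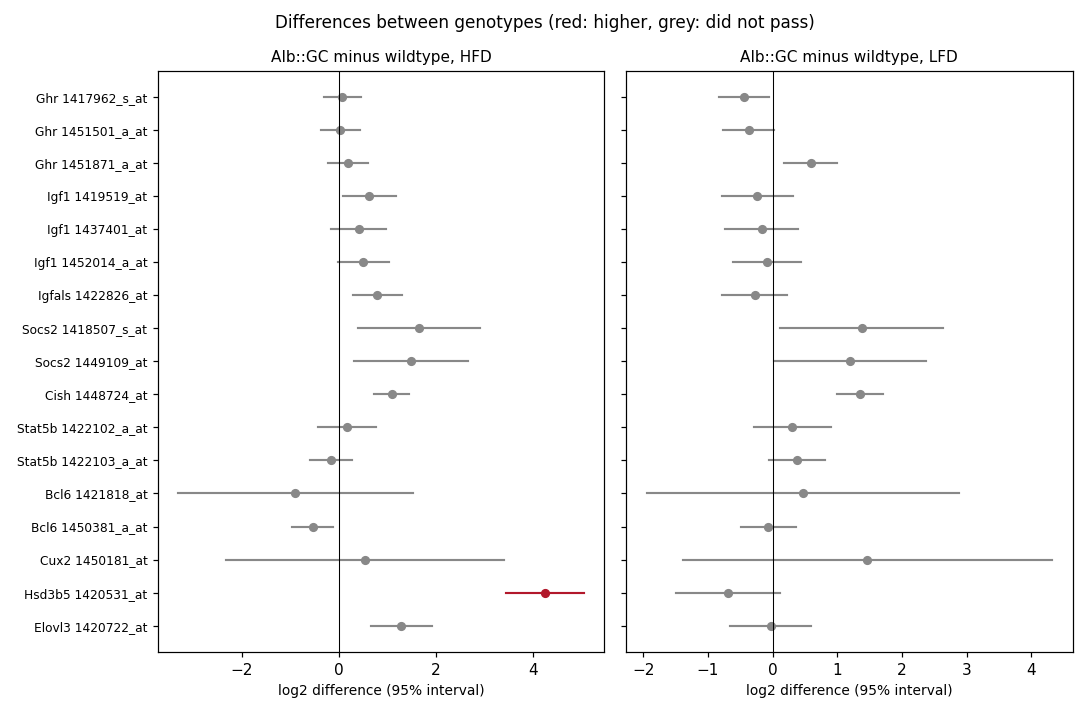
Log2 difference, Alb::GC minus wildtype, of each probe set (point) with its 95% interval (line) on HFD (left) and LFD (right). Hsd3b5 on HFD (4.25) is the only one that passed, and Cish (1.09 on HFD, 1.35 on LFD) and both Socs2 probe sets lie above 0 on both diets.

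Cish and Socs2 stood higher in Alb::GC than in wildtype livers on both diets, though neither passed. Other inhibitors of the family, named after their values were seen, did not share this: the differences of Socs3 were -0.44 on HFD and -0.81 on LFD, those of Socs1 were 0.60 and -1.28, and none passed. Cish had 1.31 and 1.15 in HFD Alb::GC livers, against 0.55 and 0.55 in HFD wildtype livers, a difference of 1.09 ± 0.15 (SE; limma adjusted p = 0.0719). On LFD it had 2.71 and 2.27 in Alb::GC livers, against 0.89 and 1 in wildtype livers, a difference of 1.35 ± 0.15 (SE; limma adjusted p = 0.0992). Averaged over diets, a contrast added after the values on each diet had been seen, the difference was 1.22 ± 0.11 (SE; limma adjusted p = 0.0717). All 4 Alb::GC arrays lay above all 4 wildtype arrays, the lowest at 1.15 and the highest wildtype array at 1. Alb::GC and wildtype arrays, taken over both diets, did not overlap in 2.7% of all probe sets, so Cish is not alone in this. Socs2 probe set 1418507_s_at had 0.39 and 1.03 in HFD Alb::GC livers, against 0.16 and 0.18 in HFD wildtype livers, and 1.07 and 1.28 in LFD Alb::GC livers, against 0.50 and 0.35 in LFD wildtype livers. Averaged over diets it differed by 1.51 ± 0.37 (SE; limma adjusted p = 0.244). No probe set of the table passed that averaged contrast (0% of all, with 2596 at an unadjusted p under 0.05). Elovl3 and Igfals had differences on HFD of 1.29 and 0.79 (limma adjusted p = 0.144 and 0.239), and 1450381_a_at of Bcl6 had -0.54 (limma adjusted p = 0.335). In the signalling list, Onecut1, a liver transcription factor, was higher in HFD Alb::GC livers by 2.58 (ratios of 3.75 to 4.19 against 0.58 to 0.67), and Stat3 was lower by 1.24, both at a limma adjusted p of 0.0440. Neither call held with any 1 array left out.

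The genes most alike in pattern were named by Pearson's r over the 16 arrays after log2 values were centred within each experiment. The arrays share their groups, so r is a description of these arrays. For Hsd3b5 they were Lifr (0.971), a cytokine receptor gene, Cyp7b1 (0.969) and the peptide transporter gene Slc15a2 (0.969). For Cish they were Skil (0.936), Crem (0.924) and Tra2b (0.923), and for Igf1 probe set 1419519_at they were Cyp4f14 (0.878), Cyp1a2 (0.859) and Car10 (0.822). Within the experiments alone, Slc15a2 and Hsd3b5 correlated at 0.972 over the 8 diet arrays and 0.962 over the 8 TTR::Fv2E-PERK arrays. For Lifr and Cyp7b1 these values were 0.986 and 0.990 over the diet arrays, and 0.891 and 0.872 over the TTR::Fv2E-PERK arrays. Hsd3b5 stood at the smallest deposited value, 0.01, in both HFD wildtype arrays, so its r over the diet arrays leans on these.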

How the data were processed

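Liver RNA was copied to biotin-labelled cRNA and hybridised to Affymetrix arrays, per the labels' protocols. The authors deposited 1 linear ratio per probe set and array, a unit read from the values; the scanner software, the summary method and the denominator are not given in the sources used. Groups came from each array's description. For LFD wildtype replicate 2 the source name mentions both genotypes, and for AP20187 replicate 4 it is a single letter; the descriptions were followed. Gene symbols are those of GEO's platform annotation, possibly outdated: 20380 probe sets had 1 symbol, 691 several and 1555 none. The 64 control probe sets were left out. Values were fitted as deposited with limma 3.58.1 in R 4.3.3 (lmFit, contrasts, eBayes with a variance trend), each 8-array experiment apart, with 6 and 4 residual degrees of freedom; the code was tested on simulated data. The diet fit pools the spread over its 4 groups. Alternatives were offsets of 0.01 and 0.25, quantile normalization, median centring, no variance trend, a median ratio of at least 0.2, and each array left out. Every probe set of the 10 genes is named. At most 4 genes a list and comparison are named, those past the threshold with the largest change. Markers, Stat5a and contrasts of a named gene across groups stand beside them. A listed gene with several probe sets was represented by the one with the lowest residual spread. The 10 genes, the lists and the tests were chosen with earlier results of these data known. Figures were drawn with matplotlib 3.10.9.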

Additional observations from a re-analysis of the deposited data

Results flagged for a closer look

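Within the 2 groups of 4 arrays, each probe set was checked for an array that stood far from the other 3 (Dixon's ratio above its 95% critical value). Of 34 such checks 3 were positive, and chance gives about 1 in 20. Hsd3b5 in AP20187 livers had 1 array at 1.7, with the others at 0.95 to 1.01. Bcl6 probe set 1450381_a_at in AP20187 livers had 1 array at 2.31, with the others at 1.28 to 1.34. Socs2 probe set 1418507_s_at in untreated livers had 1 array at 0.2, with the others at 0.31 to 0.33. These came from 3 different arrays.

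In 2 probe sets every HFD array lay above every LFD array in Alb::GC livers and below every one in wildtype livers, a pattern that 2.94% of all probe sets had. HFD and LFD arrays did not overlap in 60% of all probe sets in Alb::GC livers and in 62.7% in wildtype livers. The difference between the 2 diet effects was 0.52 ± 0.23 (SE) for Ghr probe set 1417962_s_at (limma adjusted p = 0.469) and 0.87 ± 0.32 (SE) for Igf1 probe set 1419519_at (limma adjusted p = 0.407), and neither passed.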

How the results depend on the processing

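For 35 single values (an unadjusted p under 0.01), 14 alternatives each gave 490 values, of which 0 reversed in direction. Under the alternatives that kept all arrays, 202 values kept their side of the threshold, 7 no longer passed and 1 newly passed. This tally leaves out the fits with 1 array left out, where calls were lost more often, as given above for single genes. The 35 were picked by p in these same data. Some did not pass in the main fit, and for these keeping the side means not passing. Cux2 and Hsd3b5 under AP20187, given above without a test, are also among them. Member counts moved as follows. On HFD in wildtype livers 2 were lower, not 4, after quantile normalization, and with 1 array left out 1 to 3 were lower and 0 to 2 higher. On HFD in Alb::GC livers 0 were higher after quantile normalization and without the variance trend, and with 1 array left out 0 to 2 were lower and 0 to 1 higher. The diet by genotype interaction had 1 higher (Hsd3b5) without the variance trend. Alb::GC against wildtype on HFD had 0 higher after quantile normalization and in each case with 1 array left out. AP20187 gave 5 to 6 higher and 7 to 9 lower. Over all probe sets, quantile normalization left 848 lower on HFD in wildtype livers, against 1499, and 0 calls between genotypes on HFD, against 30, where an offset of 0.25 gave 66, and no variance trend 15. With 1 array left out, calls on HFD in wildtype livers ranged over 47 to 2590, against 3303, and in Alb::GC livers over 18 to 1680, against 1531. A group of 1 array was then assumed to vary like the others. No paired analysis was possible because the labels number arrays in sequence and pair none. The ratios carry no signal over background, so dim probe sets could not be told from bright ones.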
